A study of Mus musculus with 119 samples.

Results

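Crem, Sik1, Per1, Pde4b and Pde4d are 5 genes known as targets of the transcription factor CREB, and their transcript levels were followed in mouse bone marrow-derived macrophages (BMDMs) stimulated with lipopolysaccharide (LPS). They were taken by symbol as 5 of the 18098 genes in the normalised table, whatever their values, and all 5 passed the filter on low values that kept 11971 genes for testing. All cells were C57BL/6 BMDMs, and LPS was given at 100 ng/ml. The libraries fall into 25 groups, which form 7 arms. WT cells gave 22 libraries, with 6 each at 0, 0.5 and 1 h of LPS and 4 at 2 h. Map3k8 D270A cells, which carry a kinase-dead TPL-2, gave 24 libraries, 6 at each of the same times. Elk1-/-Elk4-/- cells, which lack the ternary complex factors ELK1 and ELK4, gave 16 libraries, 4 at each time. Nfkb1 SSAA cells, in which serines of p105 that are phosphorylated to release TPL-2 are alanines, gave 18 libraries, 6 each at 0, 0.5 and 1 h. Cells given 0.1 µM PD0325901, an inhibitor of the ERK kinases MKK1 and MKK2, gave 21 libraries. Of these, 3 each had 10, 40 or 70 min of inhibitor without LPS, and 6 each had 10 min of inhibitor followed by 0.5 or 1 h of LPS. Cells given 2 µM RSKi47, an inhibitor of RSK, gave 15 libraries, with 4 after 10 min of inhibitor alone and 3, 4 and 4 when 0.5, 1 and 2 h of LPS followed. The last arm was 3 libraries of cells given the solvent DMSO for 10 min without LPS, and no library had DMSO with LPS. The cells in both inhibitor arms and the DMSO arm carried no mutation that the labels name. The deletion or mutation of each genotype was present in the cells from the start, whereas the inhibitors acted for minutes before LPS. The labels put the libraries in 5 experiments, one of which holds WT and Map3k8 D270A, another PD0325901 and DMSO, and the others 1 arm each. In comparisons other than Map3k8 D270A against WT and PD0325901 against DMSO, arm and experiment therefore cannot be told apart. The study's methods call the libraries biological replicates, and the labels do not say that they came from separate animals, so the p-values measure the spread between these libraries, which may be technical.

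CREB binds the cAMP response element (CRE) and switches genes on when a serine in its activation domain is phosphorylated and coactivators join it. Protein kinase A, MSK and RSK are among the kinases that can phosphorylate that serine, and RSK is itself switched on by ERK1/2, which TPL-2 and MKK1/2 activate in macrophages given LPS. Many CREB targets feed back on the pathway. Crem codes for a CREB relative and, from an internal promoter, for a short repressor named ICER. Sik1 codes for a salt-inducible kinase that keeps the CRTC coactivators of CREB out of the nucleus. Per1 codes for a period protein of the circadian clock, a repressor of CLOCK and BMAL1. Pde4b and Pde4d code for phosphodiesterases that break down cAMP, and PDE4B is known in macrophages as the PDE4 enzyme that LPS raises. The comparison of RSKi47 with PD0325901 asks whether blocking RSK alone and blocking the whole ERK1/2 pathway leave these genes at the same level.

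On the GRCm38.p6 build, Per1 lies at chr11:69095108-69109965, Sik1 at chr17:31844248-31855804, Pde4b at chr4:102087332-102607275 and Pde4d at chr13:108654177-109955969. RefSeq promoter windows of 300 bases, from 250 before to 50 after an annotated start, matched 3 of the 5 genes, with 2 windows for Per1, 4 for Pde4b and 1 for Pde4d. Each was searched on both strands for the full CRE TGACGTCA, the CRE core TGACG, which every full CRE also holds, the AP-1 site TGANTCA, the E-box CACGTG and the NF-κB consensus. None of the 7 windows held the letters of a full CRE or an AP-1 site, which occur in 1.79% and 7.81% of 32851 RefSeq promoters. The core occurred in 3 windows, against 20.8% of all promoters, and these 3 are printed because they show where the letters bound by CREB stand next to a start of Per1, the clock gene, and of Pde4b, the gene that LPS raised most. Capitals mark the core, as TGACG or, on the other strand, CGTCA. All 3 genes' windows are on the plus strand, at chr11:69098699-69098998 for the first Per1 window, chr11:69099902-69100201 for the second and chr4:102421305-102421604 for Pde4b.
Per1 window 1: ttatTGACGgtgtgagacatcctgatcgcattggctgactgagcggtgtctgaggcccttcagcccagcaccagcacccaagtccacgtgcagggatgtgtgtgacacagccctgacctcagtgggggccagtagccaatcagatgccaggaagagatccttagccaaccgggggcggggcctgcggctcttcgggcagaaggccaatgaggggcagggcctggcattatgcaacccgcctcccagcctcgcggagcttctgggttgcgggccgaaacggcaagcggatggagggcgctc
Per1 window 2: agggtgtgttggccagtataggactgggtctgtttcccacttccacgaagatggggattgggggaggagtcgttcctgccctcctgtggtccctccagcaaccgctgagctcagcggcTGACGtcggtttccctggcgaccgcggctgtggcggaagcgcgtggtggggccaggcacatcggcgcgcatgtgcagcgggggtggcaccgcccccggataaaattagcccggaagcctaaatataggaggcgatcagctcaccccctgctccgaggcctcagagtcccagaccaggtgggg
Pde4b window 1: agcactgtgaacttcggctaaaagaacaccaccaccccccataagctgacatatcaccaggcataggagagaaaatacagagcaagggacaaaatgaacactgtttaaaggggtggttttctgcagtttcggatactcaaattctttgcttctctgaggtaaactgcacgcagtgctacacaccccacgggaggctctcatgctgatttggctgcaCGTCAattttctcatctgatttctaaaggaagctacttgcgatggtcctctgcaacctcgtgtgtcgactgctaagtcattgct
Counted from the start at 0, the cores begin at -246 and -132 in the Per1 windows and at -34 in the Pde4b window. The first Per1 window also holds an E-box, the site of CLOCK and BMAL1, beginning at -166, against 7.15% of all promoters. The NF-κB consensus was in 2 of the other Pde4b windows, against 8.46% of all promoters, and the Pde4d window held none of the 5 motifs.

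All levels are the deposited normalised values on a log2 scale, and a difference of 1 on this scale is nominally 2-fold. In Elk1-/-Elk4-/- libraries, Elk1 lay between 6.17 and 6.59 against 9.04 to 9.49 in WT, and Elk4 between 5.51 and 5.88 against 7.57 to 8.49. Map3k8 and Nfkb1 are altered by point mutations, so their levels do not check the labels. The log2 of the summed levels of 7 macrophage markers was 18.3 to 19.2 in every library, against 4.13 to 6.04 for 4 dendritic cell markers and 2.49 to 3.44 for 4 lymphocyte markers. The 4 glia markers summed to 10.0 to 10.9, nearly all of it Mbp, with Sox10 at the table's floor. The 8 neutrophil markers summed to 10.0 to 11.0 in Elk1-/-Elk4-/- libraries against 6.29 to 7.77 in WT, 7.32 to 8.82 with PD0325901 and 7.11 to 8.60 with RSKi47. The 5 fibroblast markers summed to 5.06 to 9.42 in RSKi47 libraries against 3.93 to 4.93 in all others. The part of these other cells in the results below was not tested. In bulk libraries, fewer cells of a type and less RNA per cell cannot be told apart.

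LPS raised Pde4b in WT cells, moved Per1 first up and then down, and lowered Crem and Pde4d at 2 h. Pde4b lay between 8.88 and 9.16 in the 6 unstimulated WT libraries (median 9.05). It lay between 12.52 and 12.78 at 1 h (median 12.67) and was 11.79, 11.81, 11.92 and 11.62 at 2 h. No stimulated library overlapped the unstimulated ones. The rise was 1.21 ± 0.11 (SE) at 0.5 h, 3.61 ± 0.11 at 1 h and 2.74 ± 0.12 at 2 h, or 2.31-fold, 12.2-fold and 6.67-fold (limma over all libraries, Benjamini-Hochberg adjusted p = 3.0e-16, 1.82e-51 and 6.0e-38). The Pde4b libraries at 0.5 h had an SD of 0.70 and fell into separate ranges by replicate number, so neither the pooled rise nor its SE describes either range. The rise was 0.50 for WT numbers 4 to 6 and 1.92 for numbers 7 to 9 (adjusted p = 2.32e-06 and 1.13e-29).

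Per1, the clock repressor, lay between 8.73 and 8.97 in unstimulated WT libraries (median 8.82) and between 9.05 and 9.37 at 0.5 h (median 9.19). At 1 h it was back between 8.71 and 8.87 (median 8.80), and at 2 h it read 7.02, 6.97, 7.00 and 6.85. The 0.5 h libraries stood above every unstimulated one and the 2 h libraries far below them, whereas the 1 h libraries overlapped them. Per1 was thus 0.37 ± 0.07 higher at 0.5 h (limma adjusted p = 3.98e-05). At 2 h it was lower, with a difference of -1.87 ± 0.08 (adjusted p = 2.43e-40), a 3.65-fold fall.

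Crem read 7.95, 7.87, 7.95 and 8.10 at 2 h of LPS in WT cells, below the 8.27 to 8.39 of the unstimulated libraries (median 8.34). The difference was -0.36 ± 0.06 (limma adjusted p = 1.17e-07), and it was -0.01 and -0.03 at 0.5 and 1 h, where the groups overlapped. With WT numbers 7 to 9 only, the fall of Crem at 2 h rested on 1 library and was -0.23 (adjusted p = 0.0657). Pde4d read 4.21, 4.21, 4.19 and 3.99 at 2 h against 4.48 to 4.76 without LPS (median 4.59), a difference of -0.44 ± 0.11 (adjusted p = 0.000169). Levels of different genes are not compared here, because the values are not per length.

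Sik1 showed no call in WT cells at any time over all numbers. It lay between 7.58 and 8.0 without LPS (median 7.87), 7.56 and 8.22 at 0.5 h (median 7.94) and 7.63 and 8.04 at 1 h (median 7.79), and read 7.73, 7.75, 7.50 and 7.85 at 2 h. The 4 groups overlapped, and the differences from no LPS were 0.05 [95% interval -0.12 to 0.21], -0.05 [-0.21 to 0.12] and -0.15 [-0.33 to 0.04]. At 0.5 h Sik1 also fell into separate ranges by number, at 8.05 to 8.22 for numbers 4 to 6 and 7.56 to 7.83 for numbers 7 to 9, and the change from no LPS was 0.18 and -0.08 in these sets, without a call (adjusted p = 0.440 and 0.813). At 2 h it was -0.27 for numbers 4 to 6 (adjusted p = 0.0186) and 0.08 for number 7 (adjusted p = 0.691). WT libraries of the same number deviated together, so the fits with a block for the number bear on these values. With such a block Sik1 was lower at 2 h (difference -0.18, limma adjusted p = 0.0331) and Pde4d 0.19 higher at 1 h (adjusted p = 0.0404, against 0.0950 without the block).

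Of the 5 genes, 2 were called in WT cells at 0.5 h, 1 at 1 h and 4 at 2 h, where 12.0%, 47.7% and 72.0% of all genes tested were called. The members' shares thus lay on both sides of the background, and the direction and timing of each gene carry the description. In the other arms Pde4b rose at every LPS time. At 1 h the Pde4b rise over no LPS was 3.39 in Map3k8 D270A, 3.79 in Elk1-/-Elk4-/-, 3.32 in Nfkb1 SSAA, 3.33 with RSKi47 and 3.49 with PD0325901, in comparisons that called 42.9%, 34.2%, 44.4%, 29.0% and 43.6% of genes. Per1 fell at 2 h in each arm that was followed that far, with differences of -1.91 in Map3k8 D270A, -2.02 in Elk1-/-Elk4-/- and -1.88 with RSKi47, where 70.0%, 67.9% and 62.2% of genes were called. For PD0325901 the baseline of these LPS responses was the inhibitor alone for the same total time.

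**Figure D1:**
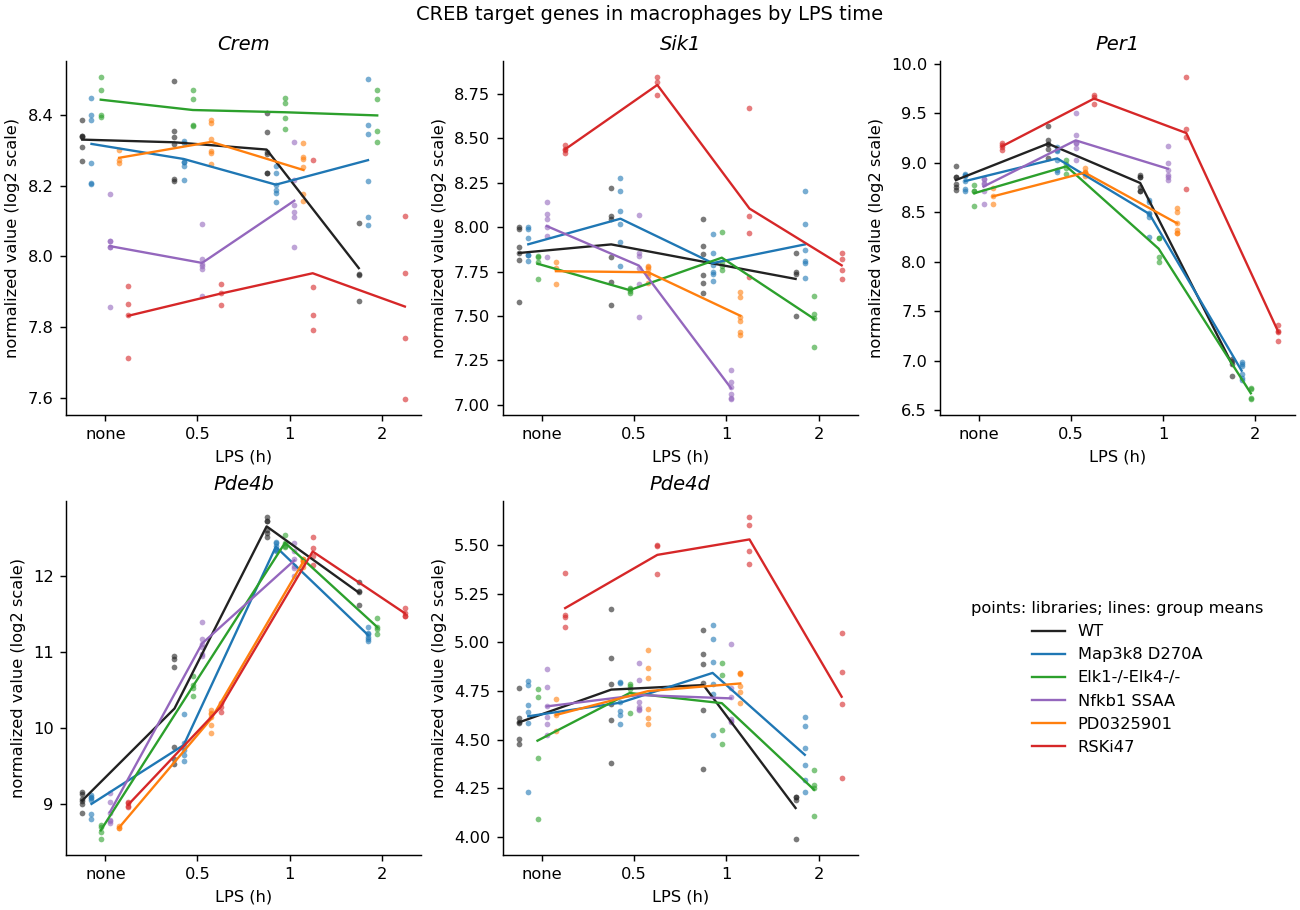
Deposited log2 level (vertical axis) of each of the 5 genes against hours of LPS (horizontal axis) in 6 arms; points are single libraries and lines join group means. Pde4b peaks at 1 h in every arm that was followed to 2 h, Per1 is lowest at 2 h, and the RSKi47 libraries stand above the other arms for Sik1, Per1 and Pde4d at 0.5 h and are among the lowest for Crem before LPS.

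With RSKi47, Sik1, Per1 and Pde4d were higher and Crem lower than with PD0325901, before LPS and after it, while Pde4b was not called at any time. Each time therefore had 4 of 5 genes called, 3 higher and 1 lower, in comparisons that called 44.6%, 49.5% and 53.9% of all genes at 0, 0.5 and 1 h of LPS. A median gene differed by -0.01, 0.01 and 0.01 at these times. The 2 inhibitors came from different experiments and had different doses, so a difference between them cannot be told apart from one between the experiments. PD0325901 libraries with LPS numbered 1 and 4, 2 and 5, and 3 and 6 were each other's nearest library over all genes at both times, and the labels do not say whether these share a culture. With each pair averaged to 1 replicate, all calls on the levels of the 5 genes between the inhibitors at 0.5 and 1 h stayed.

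Sik1, the kinase that restrains CRTC coactivators, read 8.44, 8.43, 8.42 and 8.46 after 10 min of RSKi47 and 7.68, 7.81 and 7.77 after 10 min of PD0325901. At 0.5 h of LPS it read 8.82, 8.85 and 8.74 with RSKi47 and lay between 7.69 and 7.78 with PD0325901 (median 7.75). Every RSKi47 library stood above every PD0325901 library at both times. The differences were 0.69 ± 0.11 and 1.05 ± 0.10, or 1.61-fold and 2.08-fold (limma adjusted p = 1.57e-07 and 2.1e-15).
At 1 h the 4 RSKi47 libraries spread widely, at 8.67, 7.97, 8.06 and 7.72, against 7.39 to 7.63 with PD0325901 (median 7.48). The groups again did not overlap, and the difference was 0.60 ± 0.09 (adjusted p = 2.94e-08). This SE and p-value use a spread per gene shared by all groups. The RSKi47 libraries at 1 h alone had an SD of 0.40, against 0.10 with PD0325901, so both understate their spread.

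Per1 read 9.20, 9.13, 9.18 and 9.16 after 10 min of RSKi47 and 8.74, 8.66 and 8.58 after 10 min of PD0325901. It read 9.66, 9.59 and 9.69 at 0.5 h of LPS with RSKi47, and lay between 8.86 and 8.94 with PD0325901 (median 8.90). The groups stood apart at both times, by 0.51 ± 0.09 and 0.75 ± 0.09 (limma adjusted p = 4.95e-06 and 6.05e-12). At 1 h the RSKi47 libraries read 9.86, 9.26, 9.34 and 8.74 against 8.29 to 8.54 (median 8.36), without overlap, and the difference of 0.91 ± 0.08 was 1.88-fold (adjusted p = 8.21e-18). Here too the SE and p-value use the spread shared by all groups. The RSKi47 libraries at 1 h alone had an SD of 0.46, against 0.11 with PD0325901.

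Pde4d read 5.08, 5.14, 5.13 and 5.35 after 10 min of RSKi47, against 4.54, 4.71 and 4.63 after PD0325901. With 0.5 h of LPS it read 5.35, 5.50 and 5.50 with RSKi47 against 4.58 to 4.96 (median 4.74), and at 1 h 5.60, 5.47, 5.40 and 5.64 against 4.69 to 4.84 (median 4.81). This cAMP phosphodiesterase was higher in every RSKi47 library than in any PD0325901 library of the same time. The differences were 0.55 ± 0.13, 0.70 ± 0.12 and 0.74 ± 0.11 (limma adjusted p = 0.000224, 4.72e-07 and 6.6e-09).

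Crem moved the other way. It read 7.86, 7.83, 7.92 and 7.71 after 10 min of RSKi47 and 8.30, 8.26 and 8.27 after 10 min of PD0325901, and at 0.5 h of LPS 7.86, 7.90 and 7.92 against 8.26 to 8.38 (median 8.31). All RSKi47 libraries were the lower ones at these times, by 0.45 ± 0.07 and 0.43 ± 0.07 (differences -0.45 and -0.43, limma adjusted p = 2.5e-07 and 7.57e-08). At 1 h the RSKi47 libraries read 8.27, 7.91, 7.79 and 7.83, and replicate 1 alone lay inside the PD0325901 range of 8.16 to 8.32 (median 8.26). The difference was -0.29 ± 0.06 (adjusted p = 3.06e-05). The gene-level values join the transcripts of Crem, so full-length CREM and ICER were not told apart.

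Pde4b, the gene that LPS moved most, differed little between the inhibitors. After 10 min it read 8.97, 8.96, 9.02 and 9.03 with RSKi47 and 8.68, 8.71 and 8.68 with PD0325901, which did not overlap, yet the difference of 0.30 [95% interval 0.01 to 0.60] was not called (limma adjusted p = 0.0863). The differences at 0.5 and 1 h were 0.15 [-0.12 to 0.42] and 0.13 [-0.12 to 0.38], and the groups overlapped. These intervals allow a difference of up to 0.42 on the log2 scale during LPS.

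**Figure D2:**
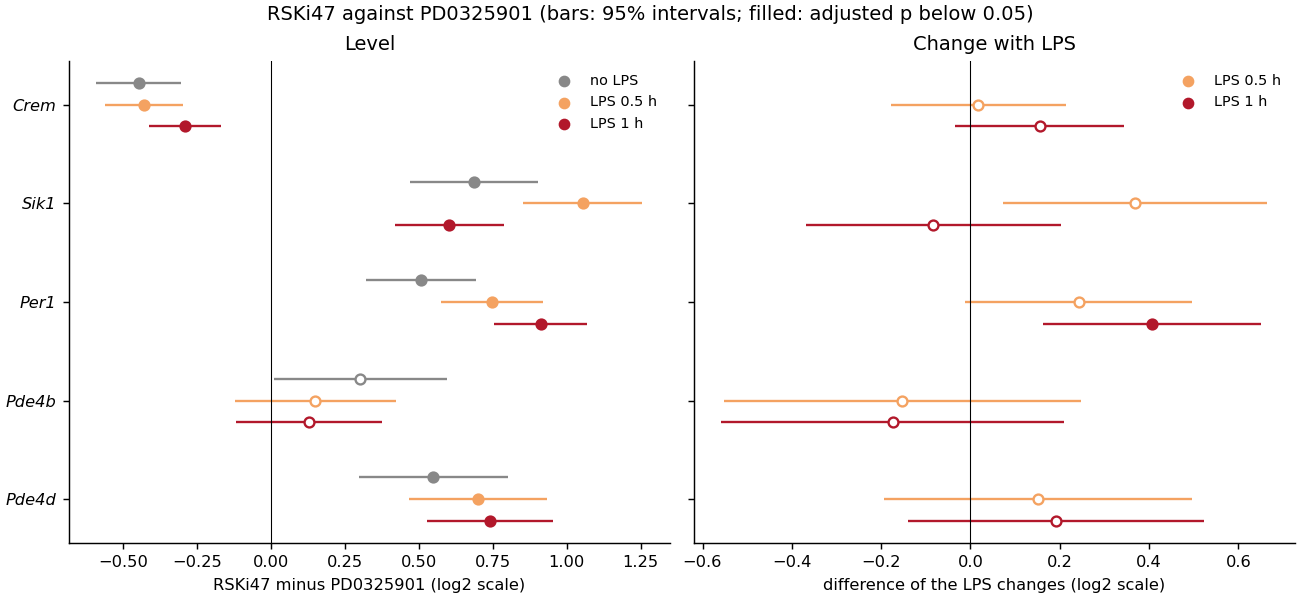
Differences between RSKi47 and PD0325901 on the deposited log2 scale (horizontal axes) for the 5 genes; points are limma estimates and bars 95% intervals, for levels at 3 times and for the change with LPS from each inhibitor's 10 min baseline. The level differences of Sik1, Per1 and Pde4d lie above 0 and those of Crem below 0 at each time, while for these 4 genes the differences in the change with LPS lie closer to 0.

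The gaps were present before LPS, so the change with LPS was compared as well. The change from 10 min of inhibitor to 0.5 h of LPS did not differ between RSKi47 and PD0325901 by a call for any of the 5 genes, where 0.660% of all genes were called and 1 of the 5 had an unadjusted p under 0.05 (limma). For Sik1 the difference in change was 0.37 [0.07 to 0.66] (adjusted p = 0.358) and for Per1 0.24 [-0.01 to 0.50] (adjusted p = 0.561). Fitted on the groups compared alone, the same values passed, with adjusted p = 0.000701 for Sik1 and 0.0181 for Per1. At 1 h, where 5.36% of genes were called, Per1 alone was called, with a difference in change of 0.41 ± 0.12 (adjusted p = 0.0308). Without RSKi47 replicate 1 at 1 h the Per1 value was 0.22 (adjusted p = 0.333), and it was also not called without RSKi47 replicate 2 or 3, without PD0325901 replicate 1, 2 or 4, or under library rescaling. The call was also lost on the groups compared alone and with PD0325901 replicates averaged in pairs. From 70 min of PD0325901 without LPS, mean Per1 went from 8.97 to 8.39 at 1 h, against 9.17 to 9.30 with RSKi47, a wider gap. Sik1 changed by -0.75 and -0.33, so its difference turned from -0.08 to upward, without a call.

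Sik1 and Per1 were higher after 70 min of PD0325901 without LPS than in DMSO. Sik1 read 7.75, 7.72 and 7.67 in DMSO, 8.01, 7.95 and 7.81 after 40 min of PD0325901, and 8.29, 8.24 and 8.22 after 70 min. Per1 read 8.67, 8.60 and 8.70 in DMSO, 8.83, 8.82 and 8.77 after 40 min, and 9.02, 9.0 and 8.90 after 70 min. The 70 min libraries of both genes lay above all DMSO libraries. The rise over DMSO at 70 min was 0.54 ± 0.12 for Sik1 (limma adjusted p = 0.000828) and 0.31 ± 0.10 for Per1 (adjusted p = 0.0487), where 4.73% of all genes were called. The Per1 call was lost without any one of the 3 DMSO or 3 PD0325901 replicates (0.29 to 0.35). After 10 min of PD0325901 none of the 5 genes and 0% of all genes tested were called against DMSO by limma, with an unadjusted p under 0.05 for 245 of 11971 genes and for none of the 5. No DMSO library was taken at 40 or 70 min, so inhibitor and time since the medium was disturbed cannot be told apart. With LPS for 1 h on top, that is 70 min of PD0325901 in all, Sik1 was lower than with 70 min of PD0325901 alone (difference -0.75 ± 0.10, limma adjusted p = 4.35e-10) and Per1 lower (difference -0.58 ± 0.09, adjusted p = 1.01e-08). Sik1 libraries with LPS lay between 7.39 and 7.63, below all 3 without it. RSKi47 had no libraries at matched times without LPS.

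RSKi47 for 10 min gave the same directions and calls against DMSO as against PD0325901. Crem was lower (difference -0.48 ± 0.07, limma adjusted p = 5.69e-08). Sik1 was 0.73 ± 0.11 higher (adjusted p = 4.09e-08), Per1 0.51 ± 0.09 higher (adjusted p = 5.16e-06) and Pde4d 0.44 ± 0.13 higher (adjusted p = 0.00304), whereas the Pde4b difference of 0.34 was not called (adjusted p = 0.0528). This comparison called 42.6% of all genes and also crossed experiments. The fibroblast markers moved with it, since Col1a1 and Col1a2, both of the 2 tested of the 5, were 3.06 and 2.43 higher in the mean, with Col1a1 at 3.93 to 9.03 (median 4.61) against 2.29 to 2.67 in DMSO. In RSKi47 libraries without LPS the markers' sum was 5.38 to 9.42 with a median of 5.95, and it lay at 5.06 to 5.81, 5.08 to 7.32 and 5.34 to 6.50 at 0.5, 1 and 2 h.

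**Figure D3:**
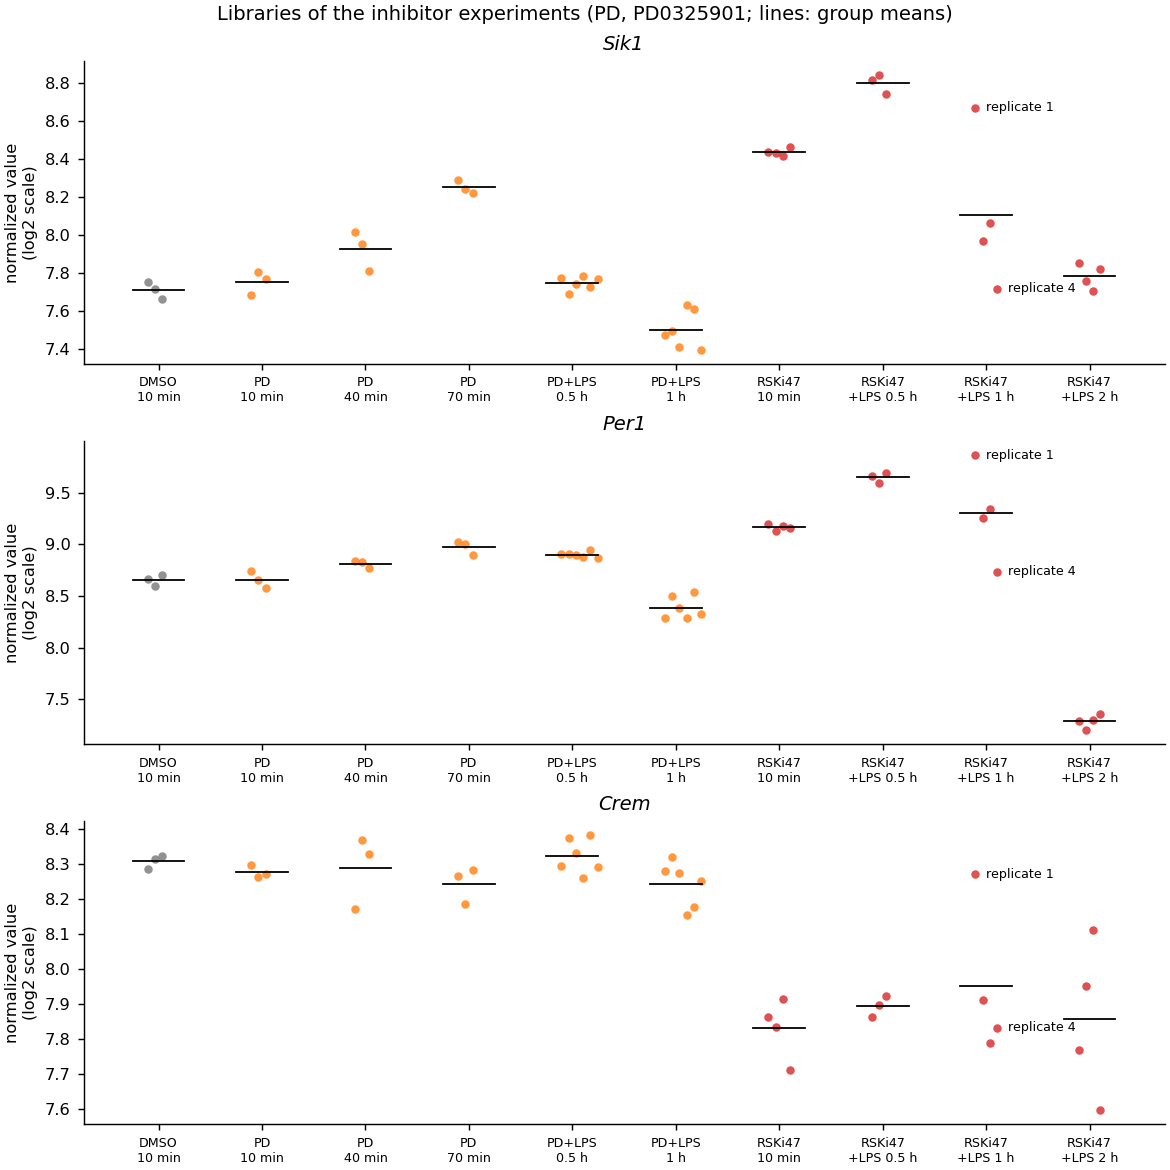
Deposited log2 levels (vertical axes) of Sik1, Per1 and Crem in single libraries of the DMSO, PD0325901 and RSKi47 groups (horizontal axis: inhibitor and LPS time), with group means as bars and replicates 1 and 4 of RSKi47 at 1 h of LPS marked. Sik1 and Per1 climb from 10 to 70 min of PD0325901 without LPS, and the marked libraries are the extremes of their group for both genes, at 8.67 and 7.72 for Sik1 and at 9.86 and 8.74 for Per1.

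Against untreated WT cells, RSKi47 libraries had lower Crem at 0, 0.5 and 1 h (differences -0.50, -0.43 and -0.35, limma adjusted p = 3.5e-11, 9.28e-08 and 9.6e-07). The Crem difference at 2 h was -0.11 [-0.24 to 0.02]. Crem read 7.77, 7.95, 8.11 and 7.60 there, around the WT range of 7.87 to 8.10. Its change from no LPS to 2 h thus differed from WT by 0.39 ± 0.09 (adjusted p = 0.000634), where the WT change itself was -0.42 for numbers 4 to 6 and -0.23 for numbers 7 to 9. Sik1 was higher by 0.58, 0.90 and 0.30 at 0, 0.5 and 1 h (adjusted p = 8.19e-08, 2.61e-12 and 0.00457) and read 7.85, 7.76, 7.71 and 7.82 at 2 h, overlapping WT. Its change from no LPS to 2 h was lower than that of WT (difference -0.51 ± 0.14, adjusted p = 0.0036). The 1 h call for Sik1 rested on RSKi47 replicate 1, without which the difference from WT was 0.11 (adjusted p = 0.315).

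Per1 kept a gap over WT at each of the 4 times, of 0.34, 0.46, 0.50 and 0.33 (limma adjusted p = 0.000168, 7.64e-06, 6.71e-08 and 0.000852), and read 7.29, 7.20, 7.30 and 7.36 at 2 h, above all 4 WT libraries. At 1 h the groups overlapped, since RSKi47 replicate 4 at 8.74 lay inside the WT range, and the Per1 difference was 0.32 without replicate 1 (adjusted p = 0.000192) and 0.69 without replicate 4. Pde4d was higher by 0.59, 0.69, 0.75 and 0.57 (adjusted p = 2.51e-06, 6.79e-07, 5.62e-09 and 2.35e-05), and at 2 h it read 4.68, 5.05, 4.30 and 4.85, above the WT libraries. Pde4b differed from WT by -0.05, 0.02 and -0.27 at 0, 0.5 and 2 h without a call. At 1 h it read 12.51, 12.27, 12.37 and 12.15, below WT by 0.33 ± 0.12 (difference -0.33, adjusted p = 0.0204). Without RSKi47 replicate 4 the Pde4b value was -0.27 (adjusted p = 0.0888) and without replicate 2 -0.31 (adjusted p = 0.0559). RSKi47 against WT called 53.0%, 48.2%, 52.8% and 52.1% of all genes at the 4 times, and of the 5 genes 4, 4, 5 and 2.

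PD0325901 against untreated WT gave called differences that were all downward. Per1 lay between 8.29 and 8.54 at 1 h against 8.71 to 8.87 in WT, with no overlap. It was 0.29 lower at 0.5 h and 0.41 lower at 1 h (differences -0.29 ± 0.07 and -0.41 ± 0.07, limma adjusted p = 0.000797 and 2.21e-06). Sik1 was lower at 1 h (difference -0.30 ± 0.08, adjusted p = 0.00229), with overlapping groups, and Pde4b lower (difference -0.46 ± 0.11, adjusted p = 0.000641), at 12.13 to 12.23 against 12.52 to 12.78. Without LPS only Pde4b was called, at -0.36 ± 0.14 (adjusted p = 0.0428), and DMSO alone differed from WT by -0.40 ± 0.14 (adjusted p = 0.0251). Against DMSO the Pde4b difference of PD0325901 was 0.04. Without any one of the 3 PD0325901 replicates, or without WT number 5 or 6, the call against WT was lost (-0.37 to -0.33), as was that of DMSO without any one of its 3 libraries (-0.42 to -0.38). PD0325901 against WT called 25.9%, 29.4% and 35.7% of all genes at 0, 0.5 and 1 h and 1, 1 and 3 of the 5 genes, and DMSO against WT called 23.6%. Crem and Pde4d were within 0.06 of WT at these 3 times, with intervals between -0.20 and 0.27.

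The change with LPS under each inhibitor was compared with WT as well. For RSKi47, 0, 0 and 2 of the 5 genes were called at 0.5, 1 and 2 h, where 0.0251%, 5.54% and 21.0% of all genes were, and 1 gene had an unadjusted p under 0.05 at each of the first 2 times (limma). For PD0325901, 0 genes were called at 0.5 and 1 h, where 1.65% and 3.64% were, with 0 and 1 under an unadjusted p of 0.05. Taking the PD0325901 baseline at the same total time instead of 10 min, the change at 1 h was lower than in WT for Sik1 (difference -0.70, adjusted p = 5.89e-05) and lower for Per1 (difference -0.55, adjusted p = 0.000297).

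In Map3k8 D270A cells, which were handled in the same experiment as WT, none of the 5 genes was called without LPS (limma, and none had an unadjusted p under 0.05), and 1, 1 and 3 were called at 0.5, 1 and 2 h. The background was 1.71%, 1.84%, 10.7% and 28.9% of genes. Pde4b read 9.71, 9.64, 9.75, 10.19, 9.81 and 9.57 at 0.5 h. WT numbers 4 to 6 read 9.53, 9.59 and 9.75 and WT numbers 7 to 9 read 10.95, 10.81 and 10.92. All 6 Map3k8 D270A libraries lay below the higher WT set and overlapped the lower one. The pooled difference was -0.48 ± 0.11 (adjusted p = 0.00432). Map3k8 D270A numbers 1 to 3 against WT numbers 4 to 6 gave 0.07 (adjusted p = 0.790), and numbers 4 to 6 against WT numbers 7 to 9 gave -1.04 (adjusted p = 2.2e-14). The labels do not say what the numbers stand for or that these sets belong together. Leaving out WT number 7, 8 or 9 alone also took the call away (-0.37 to -0.34).

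By 2 h Pde4b lay between 11.14 and 11.34 in Map3k8 D270A (median 11.22), below the 4 WT libraries at 11.62 to 11.92, by 0.56 ± 0.12 (difference -0.56, limma adjusted p = 0.000213). The rise from no LPS was smaller than in WT (difference -0.51 ± 0.17, adjusted p = 0.0217), and without Map3k8 D270A number 2 or 3 the difference was -0.48 and not called (adjusted p = 0.0519 and 0.0510). By set, the Pde4b level difference at 2 h was -0.67 for numbers 1 to 3 against WT numbers 4 to 6 (adjusted p = 1.59e-10) and -0.34 for numbers 4 to 6 against WT number 7 (adjusted p = 0.0911), and the difference in rise was -0.64 and -0.27 (adjusted p = 1.01e-05 and 0.401). WT number 7 is the 1 WT library of its set at 2 h and is assumed there to vary like the other groups. Per1 lay between 8.25 and 8.62 at 1 h (median 8.49), below every WT library, by 0.31 ± 0.07 (difference -0.31, adjusted p = 0.000809), and was not called at the other times. With Map3k8 D270A numbers 1 to 3 against WT numbers 4 to 6 the Per1 difference at 1 h was -0.20 (adjusted p = 0.240), and with numbers 4 to 6 against WT numbers 7 to 9 it was -0.42 (adjusted p = 0.00748). Crem at 2 h read 8.35, 8.37, 8.50, 8.09, 8.11 and 8.21 for numbers 1 to 6, and WT 7.95, 7.87, 7.95 and 8.10 for numbers 4 to 7. Crem was 0.31 ± 0.06 higher (adjusted p = 3.49e-05). Numbers 1 to 3 against WT numbers 4 to 6 differed by 0.48 (adjusted p = 9.69e-08), and numbers 4 to 6 against WT number 7 alone by 0.04 (adjusted p = 0.895). The change of Crem with LPS differed from WT by 0.32 ± 0.08 (adjusted p = 0.00264), and by 0.41 and 0.14 in these sets (adjusted p = 0.00175 and 0.687). Pde4d was 0.27 ± 0.11 higher at 2 h (adjusted p = 0.0448), a call that was lost without any one of 7 replicates, WT numbers 4, 5, 6 and 7 and Map3k8 D270A numbers 3, 5 and 6. Sik1 was not called at any time. In the change with LPS, 0, 0 and 2 of the 5 were called at 0.5, 1 and 2 h against 0.175%, 2.40% and 17.2% of genes, with 1 under an unadjusted p of 0.05 at each of the first 2 times (limma).

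**Figure D4:**
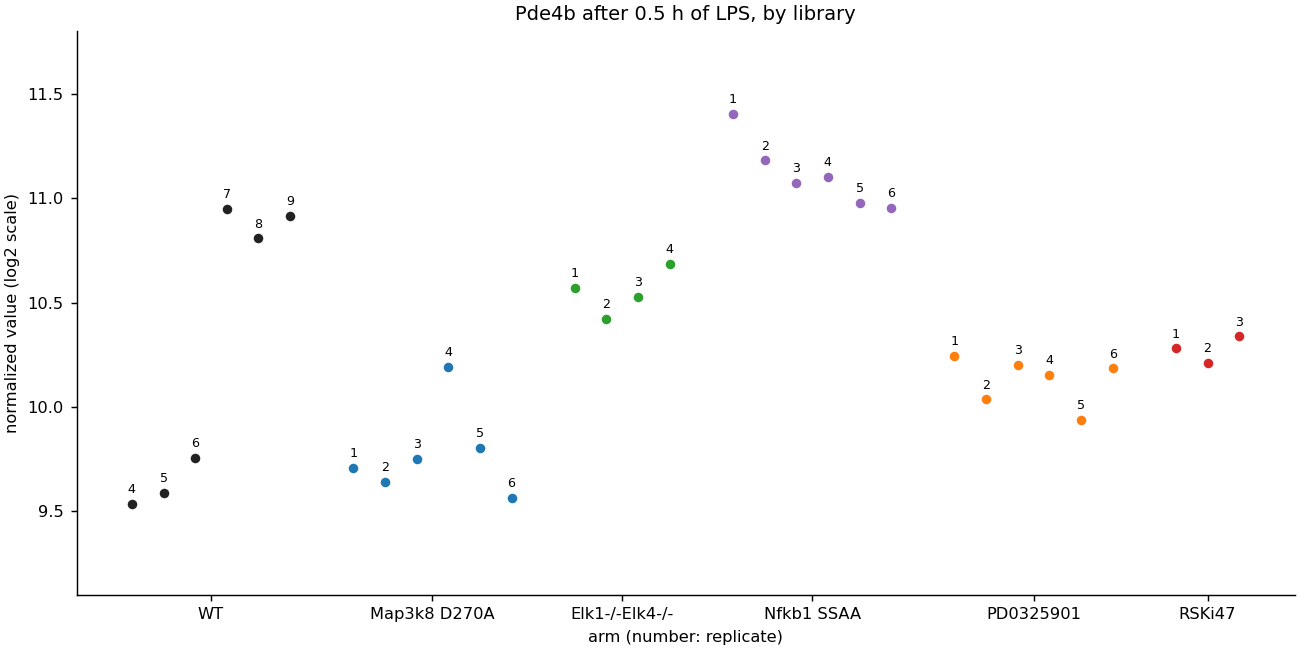
Deposited log2 level of Pde4b (vertical axis) in single libraries at 0.5 h of LPS in 6 arms (horizontal axis), each point marked with its replicate number. WT numbers 4 to 6 lie between 9.53 and 9.75 and WT numbers 7 to 9 between 10.81 and 10.95, whereas the libraries of each other arm lie in a single range.

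The same split of the WT libraries decided the sign of other Pde4b comparisons at 0.5 h. These comparisons by WT set were chosen after the values were seen. An arm whose libraries lie between the sets comes out above the lower set and below the higher set by construction. For such an arm the p-values by set therefore add no evidence on the sign. Elk1-/-Elk4-/- libraries read 10.57, 10.42, 10.53 and 10.69, between the 2 WT sets. Their Pde4b was 0.29 ± 0.12 above all 6 WT libraries (limma adjusted p = 0.0462), 0.93 above WT numbers 4 to 6 (adjusted p = 1.56e-15) and below WT numbers 7 to 9 (difference -0.34, adjusted p = 0.00119). RSKi47 libraries, at 10.28, 10.21 and 10.34, were 0.65 above the first set and below the second (difference -0.61). PD0325901 libraries were 0.50 above and below (difference -0.76). Nfkb1 SSAA libraries, between 10.95 and 11.40 (median 11.09), were above both, by 1.49 and 0.23 (adjusted p = 0.0236 for the second).

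Elk1-/-Elk4-/- cells had lower Per1 during LPS and kept Crem up at 2 h. Per1 read 8.05, 8.24, 8.24 and 7.99 at 1 h and lay between 6.62 and 6.72 at 2 h. All were below the WT libraries of the same time. The differences from WT were -0.23 ± 0.08, -0.66 ± 0.08 and -0.29 ± 0.09 at 0.5, 1 and 2 h (limma adjusted p = 0.0134, 1.74e-11 and 0.00367). The one at 0.5 h was not called with WT numbers 7 to 9 only (-0.22, adjusted p = 0.0682) or without Elk1-/-Elk4-/- number 4 (-0.20, adjusted p = 0.0536). The change of Per1 from no LPS to 1 h was lower than in WT (difference -0.53 ± 0.11, adjusted p = 0.00162). Crem read 8.47, 8.35, 8.45 and 8.32 at 2 h, above all 4 WT libraries, by 0.43 ± 0.07 (adjusted p = 5.39e-08), and had stood at 8.40, 8.47, 8.39 and 8.51 before LPS. Its change from no LPS to 2 h differed from WT by 0.32 ± 0.09 (adjusted p = 0.00714), where the WT change itself was -0.42 for numbers 4 to 6 and -0.23 for numbers 7 to 9. Pde4b was lower without LPS, at 8.54 to 8.73 (difference -0.39 ± 0.12, adjusted p = 0.00545), and at 2 h, at 11.24 to 11.45 (difference -0.45 ± 0.14, adjusted p = 0.00354).

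Sik1 lay between 7.63 and 7.66 in Elk1-/-Elk4-/- cells at 0.5 h, within the wide WT range, and its difference of -0.26 ± 0.09 was called (limma adjusted p = 0.0172). With WT numbers 7 to 9 only it was -0.05 (adjusted p = 0.740), and without WT number 6 it was -0.19 (adjusted p = 0.0832). Pde4d was not called at any time. Of the 5 genes, 1, 3, 1 and 3 were called at 0, 0.5, 1 and 2 h, with 53.6%, 46.4%, 55.2% and 52.5% of all genes. In the change with LPS 0, 1 and 1 were called, with 0.109%, 1.53% and 17.8% of all genes, and at 0.5 h 1 of the 5 had an unadjusted p under 0.05. These libraries also carried the higher neutrophil marker sum given above.

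In Nfkb1 SSAA cells Sik1 fell by 1 h of LPS, and its change differed from that in WT. Sik1 lay between 7.83 and 8.14 without LPS (median 8.02), between 7.50 and 8.07 at 0.5 h (median 7.80) and read 7.20, 7.04, 7.04, 7.13, 7.10 and 7.06 at 1 h. The 1 h libraries were below those of every other group. Sik1 was lower than without LPS (difference -0.91 ± 0.08, limma adjusted p = 1.22e-17) and lower than in WT at 1 h (difference -0.71 ± 0.08, adjusted p = 5.69e-12), and its change with LPS differed from that of WT by -0.86 ± 0.12 (adjusted p = 1.03e-08). At 0.5 h the fall of Sik1 was 0.22 (difference -0.22, adjusted p = 0.0556), and with a block for the replicate number adjusted p was 0.0141.

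Crem was lower in Nfkb1 SSAA libraries. It read 8.04, 8.18, 8.04, 8.03, 8.03 and 7.86 without LPS, below every WT library, and lay between 7.89 and 8.09 at 0.5 h (median 7.97) and 8.03 and 8.32 at 1 h (median 8.13). The differences from WT were -0.30 ± 0.05, -0.34 ± 0.05 and -0.14 ± 0.05 (limma adjusted p = 5.91e-06, 3.4e-07 and 0.0260). Without WT number 7 or 8, or Nfkb1 SSAA number 1 or 5, the 1 h call was lost (-0.14 to -0.12). Pde4b was 0.86 ± 0.11 higher than in WT at 0.5 h (adjusted p = 7.8e-10) and 0.45 lower at 1 h, at 12.01 to 12.44 (difference -0.45 ± 0.11, adjusted p = 0.000588). Its rise to 0.5 h was 1.01 ± 0.16 larger than in WT (adjusted p = 1.09e-05), 1.72 larger against WT numbers 4 to 6 and 0.30 against WT numbers 7 to 9 (adjusted p = 0.994 for the last). Per1 and Pde4d were not called against WT. Of the 5 genes 1, 2 and 3 were called at 0, 0.5 and 1 h, with 32.0%, 32.3% and 42.5% of all genes, and in the change with LPS 1 and 1, with 0.309% and 6.07%.

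**Figure D5:**
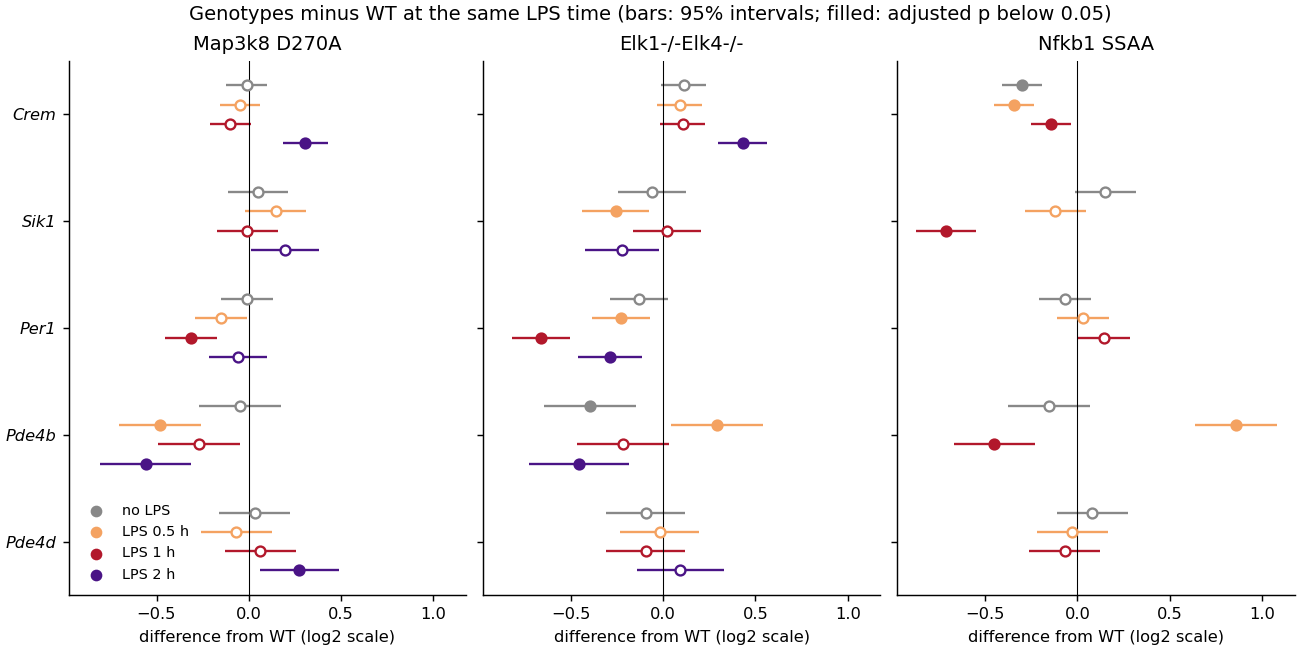
Differences from WT on the deposited log2 scale (horizontal axes) for the 5 genes in Map3k8 D270A, Elk1-/-Elk4-/- and Nfkb1 SSAA cells at each LPS time; points are limma estimates and bars 95% intervals. Per1 at 1 h in Elk1-/-Elk4-/- (-0.66), Sik1 at 1 h in Nfkb1 SSAA (-0.71) and Pde4b at 0.5 h in Nfkb1 SSAA (0.86) lie farthest from 0. The Pde4b differences at 0.5 h are from the pooled WT libraries, which fell into separate ranges by replicate number.

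Lists of genes around the 5 give the setting of the RSKi47 and PD0325901 comparison. Each list is described by its counts at 0, 0.5 and 1 h of LPS, beside the background of 44.6%, 49.5% and 53.9% given above. All 3 SIK genes were higher with RSKi47 at each time, and besides Sik1 they were Sik3, by 0.29, 0.33 and 0.36, and Sik2, by 0.32, 0.41 and 0.24. Of 10 clock genes, 8, 9 and 9 were higher and 1 lower each time. Per2, a period gene like Per1, was 1.25, 1.26 and 1.28 higher, and Nr1d1, which codes for the clock repressor REV-ERBα, 0.63, 1.16 and 1.19 higher, while Arntl, which codes for BMAL1, differed by -0.14, -0.13 and -0.24. The clock list's median was 0.42, 0.61 and 0.56.

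Of 10 phosphodiesterase genes tested of 11 listed, 4, 5 and 5 were higher and 2, 1 and 2 lower. Pde2a was 1.03, 1.03 and 1.04 higher and Pde7b 0.38, 0.66 and 0.42, whereas Pde3b differed by -0.35, -0.39 and -0.41 and Pde8a by -0.16, -0.11 and -0.17. Of 10 genes of the CREB family and its coactivators, 6 were higher and 2 lower at each time. The coactivator genes Crebbp (0.96, 0.98 and 0.95), Ep300 (0.34, 0.31 and 0.67) and Crtc1 (0.68, 0.59 and 0.54) were among the higher ones, and Creb3 (-0.22, -0.21 and -0.26) was the lower one besides Crem. The kinases that can phosphorylate CREB had 1, 2 and 1 higher and 0, 1 and 2 lower of 9 tested of 11. Prkacb, a catalytic subunit of protein kinase A, differed by 0.10, 0.14 and 0.13, Mapkapk2 by 0.06, 0.02 and -0.35, and Rps6ka4, which codes for MSK2, by -0.05, -0.11 and -0.12.

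Other known CREB or cAMP targets numbered 12 tested of 15, of which 1, 5 and 8 were higher with RSKi47 and 2, 2 and 1 lower. The orphan receptor gene Nr4a1 differed by 0.13, 0.87 and 2.18, Fos by -0.39, 0.53 and 1.64 and Fosb by 0.03, 1.00 and 1.20, the Fosb value at 1 h from 1 library fewer because a value outside the table's range was set missing. The study names Nr4a1 and Fos as genes that ternary complex factors regulate downstream of ERK1/2. The list is therefore not a measure of CREB alone. Gem, a small GTPase gene, differed by 0.04, 0.04 and -0.66. The list's median was 0.04, 0.10 and 0.54, against -0.01, 0.01 and 0.01 over all genes. Against WT, 0 of the 12 were higher and 5 lower with PD0325901 at 0.5 h, where 14.5% of all genes were higher and 15.0% lower, and 1 was higher and 7 lower at 1 h, where 16.4% and 19.3% were. With RSKi47, 0 were higher and 7 lower at 0.5 h, beside 23.7% and 24.5% of all genes, and 1 higher and 3 lower at 1 h, beside 26.5% and 26.3%. In Map3k8 D270A, 0 were higher and 7 lower at both 0.5 and 1 h, where 1.11% and 4.80% of all genes were lower. In WT cells 9, 10 and 7 of them rose at 0.5, 1 and 2 h of LPS, beside 8.19%, 24.3% and 34.9% of all genes, and 0, 1 and 2 fell, beside 3.78%, 23.4% and 37.1%. The Sik1, Per1 and Pde4d levels with RSKi47, all above WT at 0.5 h, stood on the other side of WT from the 7 called genes of this list, and the Crem level stood on the same side.

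Ordered by mean over the 25 groups, neighbours mostly overlapped. For Crem and Pde4d all 24 pairs of neighbouring groups overlapped in their libraries, for Sik1 21, for Per1 20 and for Pde4b 17. Crem ranged from 7.83 with 10 min of RSKi47 to 8.44 in unstimulated Elk1-/-Elk4-/- cells. Sik1 ranged from 7.09 in Nfkb1 SSAA at 1 h to 8.80 with RSKi47 at 0.5 h, and Per1 from 6.67 in Elk1-/-Elk4-/- at 2 h to 9.65 with RSKi47 at 0.5 h. Pde4b ranged from 8.65 in DMSO to 12.66 in WT at 1 h, and Pde4d from 4.15 in WT at 2 h to 5.53 with RSKi47 at 1 h. RSKi47 groups were thus an extreme for each of the 5 except Pde4b.

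Among all 11971 genes, the 3 whose group means ran closest to each member over the 25 groups are given as a description, with Pearson's r. The groups share arms, experiments and LPS times. For Pde4b they were Gem (0.988), Cd83 (0.980) and Prdm1 (0.979), of which Cd83 is a surface marker of activated antigen-presenting cells. For Per1 they were Zfp652 (0.970), Fam160a2 (0.970) and Mast3 (0.965). For Pde4d they were Mical3 (0.937), Sec24d (0.929) and Ctif (0.916), and for Crem Slc25a13 (0.918), Serpinb1c (0.907) and Akr1e1 (0.907). Sik1 had the least close partners, Zbtb38 (0.824), Abcg1 (0.823) and Plekhg5 (0.803). None of the 15 was another of the 5 genes.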

How the data were processed

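Libraries were made with a TruSeq RNA kit and sequenced as single-end reads, per the study's methods. Per the submitters' processing notes, reads were aligned with STAR 2.5.1b and counted with RSEM 1.2.29 on mm10, and DESeq2 1.10.1 was used; the study's methods name other versions of STAR and RSEM. The authors deposited 1 table of normalised values on a log2 scale (-2.40 to 19.81), whose exact transformation no source used here states; how it treats low values is not known, so differences of weak genes may be understated. Counts were not used, so the depth behind each value is unknown. One value, for Fosb, was above a limit of 25 and was set missing.

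A limma 3.58.1 fit (R 4.3.3) was made over all 119 libraries with a mean for each of 25 groups, on the 11971 genes that reached 10 on the linear scale in 3 or more libraries. The fit takes a gene's spread as equal in all groups. It was tested on simulated data with that same spread and independent libraries, in the comparison of RSKi47 with PD0325901 at 1 h of LPS. This does not show how the p-values behave with unequal spread or paired libraries. P-values were adjusted by Benjamini-Hochberg over all genes, and a call means an adjusted p below 0.05. Replicates were taken from the labels. The change with LPS was compared as a difference of differences, with 10 min of inhibitor as the baseline. Same-numbered WT libraries correlated in their deviations from the group means in 30 of 30 pairs (r 0.16 to 0.79), and Nfkb1 SSAA libraries in 18 of 18 (0.14 to 0.67). The correlation was over 0.1 in 34 of 36 pairs in Map3k8 D270A, 20 of 21 with RSKi47, 20 of 24 in Elk1-/-Elk4-/- and 14 of 33 with PD0325901. The main fit used no pairing, and fits with a block for the number were run as alternatives. Correlations between different numbers were not computed, so pairing by number and a shift shared by several numbers cannot be told apart. Between arms not every pair was over 0.1 for any 2 arms. WT and Map3k8 D270A lay at -0.45 to -0.06, and Map3k8 D270A and RSKi47 had 6 of 15 pairs over 0.1.

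The members and lists were chosen with earlier results of these data known. The genes named were the 5 members, up to 3 per direction and list among those called for RSKi47 against PD0325901 at 1 h of LPS, and the 3 genes most correlated with each member over group means. Alternatives changed the spread, filter, scaling, block, replicates, baseline, control and threshold; those on RSKi47 replicates 1 and 4 at 1 h and on WT numbers were chosen after seeing the data. Promoter windows came from RefSeq on GRCm38.p6; no Sik1 or Crem window was matched.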

Additional observations from a re-analysis of the deposited data

Results flagged for a closer look

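In 9 of 75 tests the change of a gene with LPS differed between 2 arms (limma interaction, adjusted over all genes), in comparisons that called 0.0251% to 21.0% of all genes. For Crem the change to 2 h was 0.32 higher than in WT in Map3k8 D270A (0.318) and in Elk1-/-Elk4-/- (0.319) and 0.39 higher with RSKi47 (0.390). For Sik1 it differed from WT by -0.86 at 1 h in Nfkb1 SSAA and by -0.51 at 2 h with RSKi47. For Per1 it differed by -0.53 at 1 h between Elk1-/-Elk4-/- and WT and by 0.41 at 1 h between RSKi47 and PD0325901. For Pde4b it differed by -0.51 at 2 h between Map3k8 D270A and WT and by 1.01 at 0.5 h between Nfkb1 SSAA and WT. All comparisons with WT share the same unstimulated WT libraries, and the 3 Crem values also share the 4 WT libraries at 2 h, so they are not separate evidence.

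A single library stood far from its group in 2 of 100 tests of a gene within a group by Dixon's ratio, where chance marks about 1 in 20. Pde4b in PD0325901 at 1 h of LPS read 12.13 in replicate 5, against 12.20 to 12.23 in the other 5. Pde4d in WT at 2 h read 3.99 in number 7, against 4.19 to 4.21 in the other 3.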

How the results depend on the processing

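Across 314 results and 5898 values under alternatives, 7 called values changed sign and 179 values changed sign without a call on either side. Pde4b accounts for the 7: at 0.5 h 0.074 for Map3k8 D270A with replicate set 1; with WT numbers 7 to 9 only, -0.34 for Elk1-/-Elk4-/-, -0.61 for RSKi47, and in the change with LPS -0.64 (-0.635) for RSKi47 and -0.48 for PD0325901; with WT numbers 4 to 6 only, 0.50 for PD0325901; and without LPS 0.0396 for PD0325901 against DMSO. The cause was not tested.

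The number of the 5 genes called moved as follows. Asking for 2-fold as well left 1 at 0.5 h and 2 at 2 h in WT, 1 for RSKi47 against PD0325901 at 0.5 h, and 0 in every other comparison of levels between arms. For RSKi47 against PD0325901 the values that missed 2-fold were -0.43 and -0.29 (Crem), 0.75 and 0.91 (Per1), 0.70 and 0.74 (Pde4d) at 0.5 and 1 h, and 0.60 (Sik1, 1 h); apart from the filter at 50, which leaves Pde4d untested, no other alternative run took away any of these calls. Fitting only the groups compared gave 0, 2, 2, 1 and 2 for Map3k8 D270A at 0.5 and 1 h and Elk1-/-Elk4-/- at 0, 0.5 and 1 h. Replicate set 1 gave 2 for WT at 1 h and 0 for Map3k8 D270A at 0.5 h, and set 2 gave 0 at 2 h. A filter at 50, which removes Pde4d, left 1 for RSKi47 at 2 h; no filter, or DMSO as control, left 0 for PD0325901 without LPS; and RSKi47 replicates 2 and 3 only left 3 at 1 h. With the replicate block as an additive number the counts were 2 for Map3k8 D270A at 0.5 h, 3 for RSKi47 against WT at 1 h, and 2 for PD0325901 at 0 and 0.5 h; as a random block (correlation 0.318) they were 2 for WT at 1 h and 0 for PD0325901 without LPS; the block changed no other count of calls by more than 1.5 times. Within arms outside those named in the report, the random block also gave calls from no LPS for Crem (-0.12) and Pde4d (0.22) at 1 h and Pde4d (-0.20) at 2 h in Map3k8 D270A, and for Pde4d (-0.25) at 2 h in Elk1-/-Elk4-/-. Leaving out each replicate in turn gave 1 to 2 for WT at 1 h, 0 to 1 for Map3k8 D270A at 0.5 h, 1 to 3 for Elk1-/-Elk4-/- at 0.5 h, 0 to 1 for PD0325901 without LPS and 1 to 2 at 0.5 h.

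The difference in change between RSKi47 and PD0325901 crossed the threshold under several alternatives. For Sik1 at 0.5 h it passed at 0.37 with only the groups compared and at 0.54 with the PD0325901 baseline of the same total time (adjusted p = 0.0408), and for Per1 at 0.24 with only the groups compared. For Per1 at 1 h it did not pass at 0.41 with only the groups compared (limma adjusted p = 0.302), at 0.38 after median centring (0.0572), at 0.32 after quantile normalisation (0.134), at 0.41 with PD0325901 replicates averaged in pairs (0.0791) or at 0.41 with 2-fold as well; leaving out each replicate gave 0.22 to 0.59. Depth is unknown, so it could not be used to limit any value.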
